A study of Mus musculus with 11 samples.

Results

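The LINE entries outside L1 are 50 repeat subfamilies that the deposited count tables class as LINE but assign to a family other than L1. They were taken by that class and family label, from 58223 entries per library, of which 1243 are repeat subfamilies and 56980 are genes. No count entered that rule, but the set was chosen with earlier results of these data known. By family they comprise 25 CR1, 14 L2, 4 RTE-X and 2 RTE-Bo.B subfamilies and 1 each of Penelope, Dong-R4, I-Jockey, L1-Tx1 and RTE-BovB. The 3 L1-dep entries are classed as Retroposon rather than LINE and were therefore kept as a comparison family.

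RNA was sequenced after depletion of ribosomal RNA from primary lung fibroblasts, the connective tissue cells of the lung, grown at 37 °C in 5% CO2 and 5% O2 with 15% serum. Fibroblasts of 6 mice lacking cGAS, the cytosolic sensor of double-stranded DNA (KO, 3 females and 3 males), were set against those of 5 wild-type mice (WT, 2 females and 3 males), with 1 library per animal. The question named in the title of the series is the release of L1 elements after loss of cGAS. Ages, the strain and the design of the KO allele are not given in the sources used here, and the extraction text speaks of tissue although the samples are labelled as cells.

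LINEs are retrotransposons that move by copying their RNA into DNA with a reverse transcriptase of their own. L1 is the LINE that still moves in the mouse, whereas L2, CR1 and the RTE groups were active in ancestors of today's mammals and are left as short, mutated fragments scattered between genes and within introns. MIR, a SINE of similar antiquity, was mobilised by the L2 machinery. Reads on such fragments can come from transcripts of the element itself or from introns and untranslated ends of host genes that contain them, and a count per subfamily does not separate these. No consensus sequence of these subfamilies was among the sources used here, so none is shown.

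Total counts ran from 27261958 to 48039328 per library, and repeats took 5.31% to 10.2% of them, with the highest share in WT female 2. That library also stood apart for nuclear noncoding RNAs. Malat1 was at 8377 CPM (counts divided by the library total and scaled to a common size) against 1995 to 3349 CPM in the other libraries, and Neat1 was at 1160 against 86.0 to 221 CPM. Its mitochondrial share was 1.33% against 0.726% to 1.04%. Cgas was at 1.59 to 2.31 CPM in KO and 5.88 to 10.03 CPM in WT libraries (log2 fold change -1.98, SE 0.15, edgeR adjusted p = 0.000954), so reads on the gene remained in KO cells. The summed fibroblast markers were at 37381 to 50887 CPM in KO and 41664 to 55049 CPM in WT libraries. Female and male libraries carried names of different styles, and a difference between the sexes and one that goes with this naming cannot be told apart.

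The elements together made up a small part of each library. Their share of all counts was lowest in KO male 2 at 0.0908% (95% Wilson interval 0.0900% to 0.0917%) and highest in WT female 2 at 0.166% (0.165% to 0.168%). Such intervals hold the error of counting and no spread between animals. Copies of 1 molecule made by PCR were not marked and each read is counted, so the intervals can be too narrow even for that error. Of all LINE counts, L1 included, the elements outside L1 held 15.0% to 16.5%, with 16.0 ± 0.37% (SD, n = 6) in KO and 15.9 ± 0.557% (SD, n = 5) in WT. The mean share of LINE counts thus differed between genotypes by less than the spread within either.

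L2 supplied most of the signal. It held 82.6% of the counts on all LINEs outside L1, and between 81.6% and 83.4% in each library. CR1, the clade first described as chicken repeat 1, held 12.2%, RTE-Bo.B held 3.00% and RTE-X held 1.06%. Penelope, a class of retroelement with an endonuclease unlike that of L1, held 0.550%. Dong-R4, whose clade carries an endonuclease resembling a restriction enzyme, held 0.375%, and I-Jockey, a group best known from flies, held 0.298%. These are shares of counts and not levels per copy, because neither the length nor the copy number of a subfamily was among the sources used here.

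A few subfamilies accounted for nearly all of it. The 8 with the highest mean count (L2a, L2, L2b, L2c, L3, L2d2, MamRTE1 and L2d) held 91.6% of the counts. Within the L2 family, L2a held 38.5%, the subfamily named L2 held 22.6%, L2b held 15.9% and L2c held 13.2%. The share of L2a ran from 35.4% in WT female 2 to 41.4%, whereas the share of the subfamily named L2 stayed between 22.2% and 23.2%. Within CR1, the mammalian subfamily L3 held 63.6% and its relative L3b held 16.99%. RTE-X was spread over L4_C_Mam (36.5%), L4_A_Mam (34.9%), L4_B_Mam (22.3%) and L5 (6.34%), and MamRTE1 held 99.5% of RTE-Bo.B.

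At the other end, 13 subfamilies had a mean below 10 counts per library. Neither L2-1_AMi nor a second entry for MamRTE1, filed under RTE-BovB, had a count in any library, which allows a level of up to 0.0624 to 0.110 CPM (3 counts) depending on the library. In all, 39 of the 50 passed the filter on low counts and were tested for KO against WT. The 11 others were CR1-1_Amn, CR1-12_AMi, CR1-13_AMi, CR1-11_Crp, CR1-L3A_Croc, CR1-L3B_Croc, X7D_LINE, L2-1_Crp, MARE6 (the single L1-Tx1 subfamily) and both entries at 0. In fits by sex CR1-1_Amn passed as well, which makes 40.

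**Figure D1:**
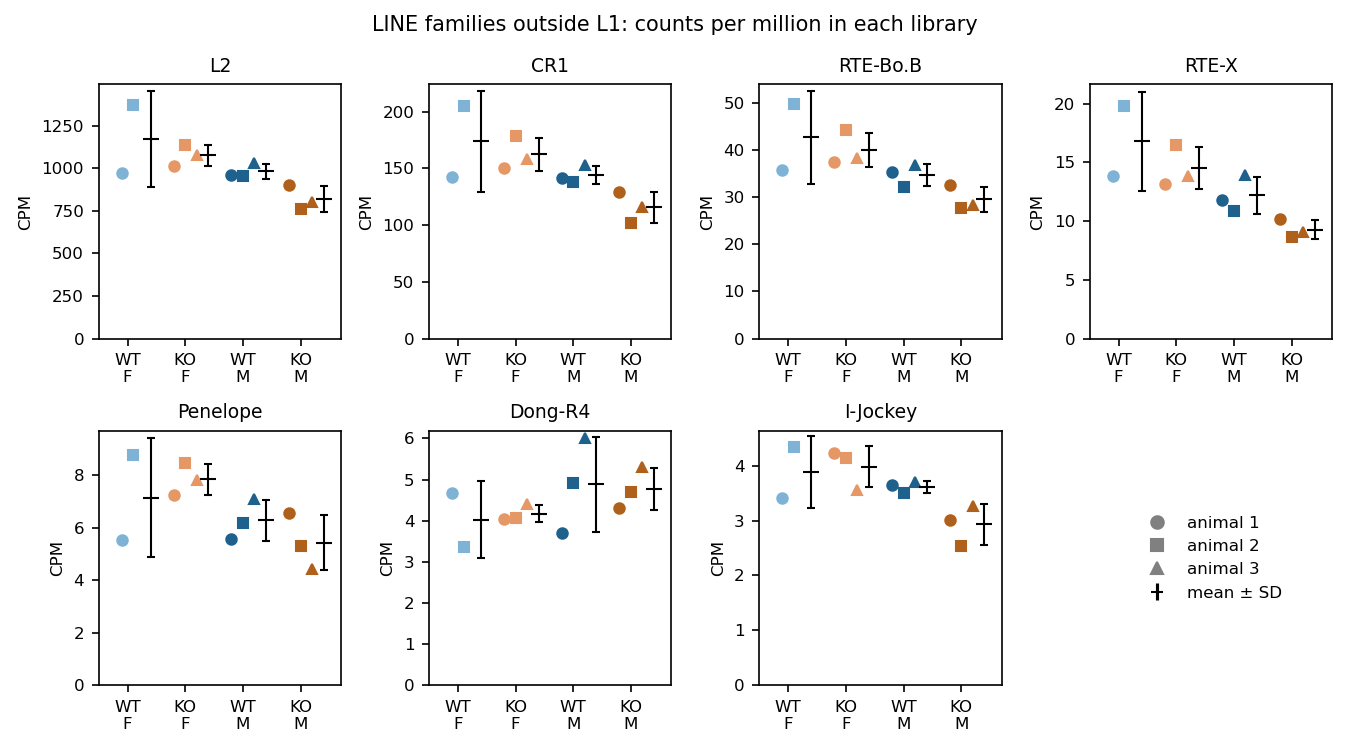
CPM (vertical axis, from 0) of each LINE family outside L1 in every library, by genotype and sex, with 1 symbol per animal and the mean ± SD of each group beside it. For L2, CR1 and RTE-X the 3 KO males lie below the 3 WT males, for RTE-Bo.B they overlap, and for all 4 WT female 2 is the highest library, whereas Dong-R4 is lowest in WT female 2.

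Summed over all 50 subfamilies, the level was 1228, 1389 and 1305 CPM in the KO females and 1088, 908 and 965 CPM in the KO males. It was 1177 and 1663 CPM in the WT females and 1159, 1152 and 1254 CPM in the WT males. KO and WT libraries overlapped, with 1147 ± 192 CPM (SD, n = 6) in KO and 1281 ± 218 CPM (SD, n = 5) in WT. The difference in the share of all counts, KO minus WT, was -0.0134 percentage points, smaller than the pooled SD of 0.0204 points, and it ran from -0.0182 to -0.00381 points when single libraries were left out. In these bulk samples, fewer cells of a type and less RNA per cell cannot be told apart.

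No tested LINE subfamily outside L1 was called for KO against WT when both sexes were analysed together. With edgeR's quasi-likelihood test, adjusted by Benjamini-Hochberg over 22298 entries in a model with sex and genotype, 0 of 39 subfamilies passed 0.05, and 4 of 39 had an unadjusted p under 0.05, against 3832 of all 22298 entries. The background was equally sparse: 0.00448% of all entries were called, a single entry, Cgas. KO and WT libraries overlapped for all 39, where 0.48% of entries had all KO libraries below and 0.596% above all WT libraries. Fitted differences were negative for 34 subfamilies and positive for 5, with a median of -0.22 on the log2 scale and a range from -0.83 to 0.35. The same lean was present in the 1046 other repeat subfamilies tested (median -0.25) and in 147 L1 subfamilies (median -0.24), while the median over all entries was -0.01. It depended on the scale. When libraries were scaled on repeats rather than on all entries, the median over all entries moved to 0.21, the median of the 39 to 0.02, and 21 of 39 were positive. That scale takes out a lean that repeats share, and the 39 are repeats themselves. Their median near 0 therefore follows from the scale and is not a separate result.

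By family, L2 was at 1012, 1133 and 1080 CPM in KO females, 902, 758 and 799 CPM in KO males, 971 and 1372 CPM in WT females and 957, 956 and 1033 CPM in WT males. KO and WT libraries overlapped, and WT female 1 lay below all KO females. The fitted log2 fold change of L2 was -0.20 (SE 0.11, edgeR adjusted p = 0.373), and it was 0.05 when libraries were scaled on repeats. CR1 was at 150, 178 and 158 CPM in KO females, 129, 102 and 116 CPM in KO males, 143 and 205 CPM in WT females and 141, 138 and 153 CPM in WT males. Its order across the groups was that of L2, with a log2 fold change of -0.22 (SE 0.12, adjusted p = 0.351) that became 0.03 when scaled on repeats.

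The RTE families had their group means in the same order. RTE-Bo.B was at 37.4, 44.1 and 38.3 CPM in KO females, 32.5, 27.7 and 28.4 CPM in KO males, 35.6 and 49.6 CPM in WT females and 35.2, 32.2 and 36.8 CPM in WT males. Its log2 fold change was -0.17 (SE 0.11, adjusted p = 0.431), against 0.08 when scaled on repeats. RTE-X was at 13.1, 16.5 and 13.9 CPM in KO females, 10.2, 8.62 and 9.06 CPM in KO males, 13.8 and 19.8 CPM in WT females and 11.8, 10.9 and 13.9 CPM in WT males. With -0.31 (SE 0.13, adjusted p = 0.237) it had the most negative difference of the 7 families tested, and it was also negative when scaled on repeats.

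The 3 remaining families tested have 1 subfamily each. Penelope ran from 4.43 to 8.45 CPM in KO and from 5.53 to 8.76 CPM in WT, with a log2 fold change of -0.06 (SE 0.16, adjusted p = 0.882) that became 0.20 when scaled on repeats. I-Jockey ran from 2.53 to 4.24 CPM in KO and from 3.42 to 4.34 CPM in WT, with -0.15 (SE 0.12, adjusted p = 0.554), or 0.09 when scaled on repeats. Dong-R4, whose single subfamily is Mam_R4, ran from 4.04 to 5.31 CPM in KO and from 3.35 to 6.01 CPM in WT, with 0.01 (SE 0.13, adjusted p = 0.978). None of the 7 families passed the threshold, in a fit of 21280 entries in which 0.0047% were called.

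The 8 most abundant subfamilies had values close to those of their families. L2a was at 383, 420 and 407 CPM in KO females, 358, 314 and 323 CPM in KO males, 375 and 485 CPM in WT females and 383, 373 and 391 CPM in WT males. It had the smallest difference of the 8, with a log2 fold change of -0.15 (SE 0.09, edgeR adjusted p = 0.409), or 0.09 when scaled on repeats. L2c was at 138, 152 and 145 CPM in KO females, 112, 91.7 and 101 CPM in KO males, 136 and 193 CPM in WT females and 116, 123 and 144 CPM in WT males. Its log2 fold change was the most negative of the 8, at -0.26 (SE 0.11, adjusted p = 0.264). For the 6 others (L2, L2b, L3, L2d2, MamRTE1 and L2d) it ran from -0.24 to -0.16, with adjusted p from 0.320 to 0.487, and for all of these but L2d2 it was positive when scaled on repeats.

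**Figure D2:**
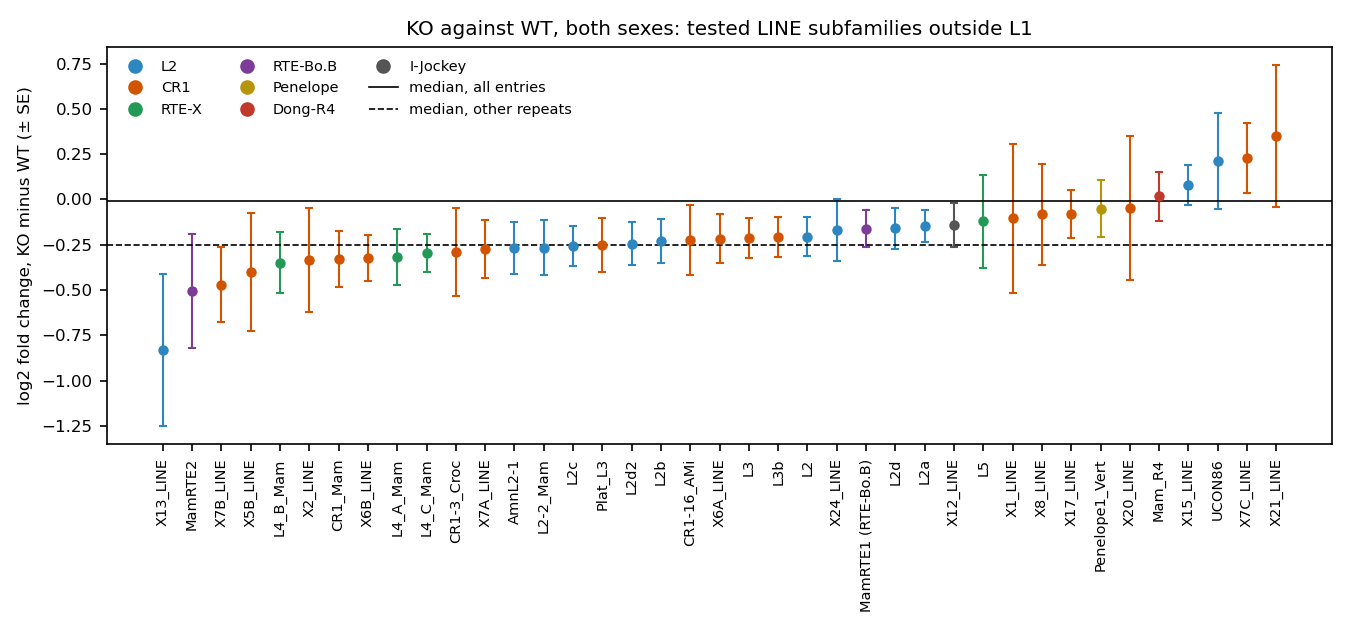
Fitted log2 fold change, KO minus WT over both sexes, with SE bars, of the 39 tested LINE subfamilies outside L1, ordered by value and coloured by family. The solid line is the median of all entries (-0.01) and the dashed line that of the other repeats (-0.25); 34 of the 39 points lie below 0 and none passed the threshold.

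The largest fitted differences belonged to subfamilies with few counts. X13_LINE, an L2 subfamily with a mean of 10.2 counts, had 10, 17 and 9 counts in KO females, 2, 6 and 6 in KO males, 5 and 17 in WT females and 12, 11 and 17 in WT males. KO males were below all WT males, and the females overlapped. Its log2 fold change over both sexes was -0.83 (SE 0.42, edgeR adjusted p = 0.329). MamRTE2 of RTE-Bo.B (-0.51) and X7B_LINE of CR1 (-0.47) were next. At the positive end stood X21_LINE of CR1 (0.35), X7C_LINE of CR1 (0.23) and UCON86 of L2 (0.21), with means of 10.2, 43.8 and 10.5 counts. The spread between animals of a group was closer to counting error for subfamilies with few counts. Among the 15 subfamilies with means of 10 to 100 counts, the coefficient of variation within groups was 0.80 to 1.99 times that of counting alone, whereas for the 9 with a mean of at least 1000 counts it was 4.42 to 13.3 times. For L2a the values were 8.87% between animals and 0.796% from counting, so the spread between animals was larger than the error of counting for the abundant subfamilies.

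**Figure D3:**
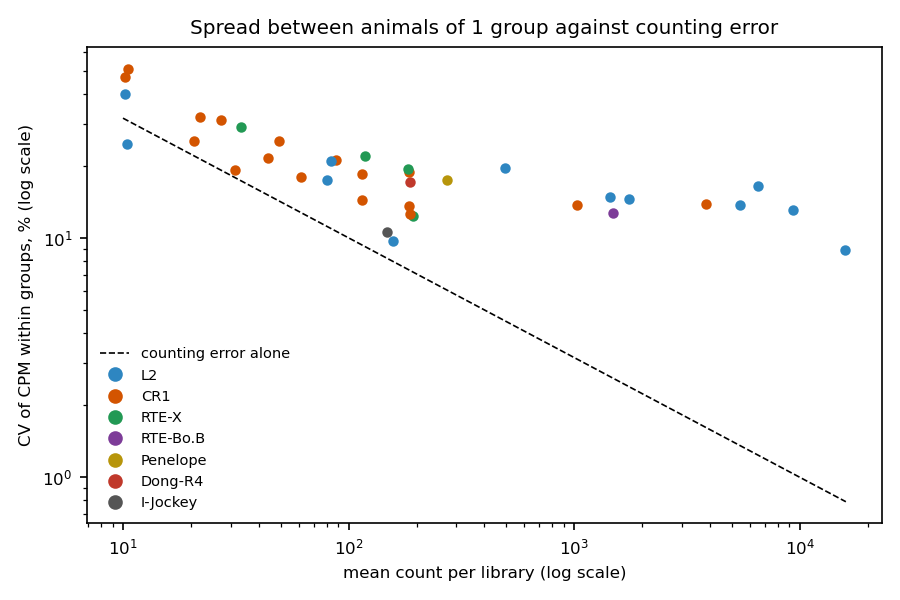
Coefficient of variation of CPM within groups (vertical, percent, log scale) against the mean count per library (horizontal, log scale) for 37 LINE subfamilies outside L1 with a mean of at least 10 counts, coloured by family; the dashed line is counting error alone. Subfamilies under 100 counts lie 0.80 to 1.99 times the line, and those over 1000 counts lie 4.42 to 13.3 times above it.

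Males and females were then examined separately, in a model with a mean for each genotype and sex. In males, the summed level was 987 ± 91.6 CPM (SD, n = 3) in KO against 1188 ± 56.8 CPM (SD, n = 3) in WT, and no KO male reached the lowest WT male. For 21 of 40 subfamilies all KO males lay below all WT males, and for 0 of 40 they lay above, where 15.2% and 15.1% of all entries did so. Among these 21 were L2a, L2, L2b, L2c, L2d, L2d2, L3, L3b, L4_A_Mam and L4_C_Mam. The other repeats showed the same arrangement for 472 of 1061 subfamilies. Even so, 0 of 40 passed edgeR's test in males, where 1.22% of all entries were called, and 4 of 40 had an unadjusted p under 0.05, against 5072 of 22960 entries. The median log2 fold change in males was -0.29, or 0.00 when libraries were scaled on repeats.

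Nearest to the threshold in males was CR1-3_Croc, a CR1 subfamily. It was at 1.05, 0.785 and 1.12 CPM in KO males and 1.67, 1.46 and 2.25 CPM in WT males, without overlap. In females the order was opposite, with 1.59, 2.03 and 1.87 CPM in KO and 1.45 and 1.28 CPM in WT. The log2 fold change in males was -0.82 (SE 0.21, edgeR adjusted p = 0.0646), and it passed with DESeq2 (-0.83, adjusted p = 0.0223). Scaled on repeats it was -0.52 (adjusted p = 0.243). The edgeR adjusted p in males was 0.0475 without WT female 1, 0.0488 without WT female 2 and 0.0457 without WT male 2. The test of the KO effect in males minus that in females gave -1.23 (SE 0.32, adjusted p = 0.307). By family the male values were -0.24 for L2, -0.29 for CR1, -0.21 for RTE-Bo.B and -0.37 for RTE-X, with adjusted p of 0.385, 0.297, 0.438 and 0.233, where 1.54% of entries in the family fit were called.

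In females the WT mean rested on libraries that differed widely, and it decided the direction. The summed level was 1307 ± 80.4 CPM (SD, n = 3) in KO against 1420 ± 344 CPM (SD, n = 2) in WT. With edgeR 0 of 40 subfamilies passed, 0 of 40 had an unadjusted p under 0.05 (1522 of 22960 entries), and 0.00436% of all entries were called. The family values were -0.15 for L2, -0.13 for CR1, -0.12 for RTE-Bo.B and -0.24 for RTE-X, and none passed, where 0.00456% of entries in that fit were called. Without WT female 2 they became 0.16, 0.20, 0.17 and 0.08. Without WT female 1 they were -0.42, -0.41, -0.39 and -0.52, with -0.50 for the subfamily L2b and -0.43 for L2d. WT female 2 is then the only WT female, assumed to vary like the other groups, and without WT female 2 the same holds for WT female 1. Over both sexes, leaving out WT female 1 took L2c (-0.36, adjusted p = 0.0486) and L4_C_Mam (-0.38, adjusted p = 0.0446) past the threshold. How many of all entries passed in that fit is not shown here. KO females lay above both WT females for 3 of 40 subfamilies (CR1-3_Croc, UCON86 and X21_LINE, named after their values were seen), where 9.45% of all entries did so, and below them for 0 of 40, where 8.9% did.

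The difference between the sexes in the response to genotype was tested directly. It passed for 0 of 40 subfamilies and for 0% of all entries with edgeR, and 3 of 40 had an unadjusted p under 0.05, against 2960 of 22960 entries. For the families L2, CR1, RTE-Bo.B and RTE-X the adjusted p of that difference was 0.888, 0.765, 0.883 and 0.842.

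WT female 2 was the highest library for 24 of 39 subfamilies, where 22.3% of all entries were highest there. KO male 2 was the lowest for 26 of 39, where 9.88% of all entries were lowest there. The nuclear noncoding RNA list, tested beside them, had 0 of 8 members called for KO against WT. Its summed level was 10428 CPM in WT female 2 and 2284 to 4135 CPM in the other libraries. Markers of leukocytes and macrophages summed to 6263 to 10740 CPM in KO and 4608 to 6634 CPM in WT libraries. None of those tested over both sexes was called. The T cell gene Cd3e, at 0 in 9 libraries, and the leukocyte gene Cd79a did not pass the filter for that test. In males, where all KO libraries lay below all WT libraries for 21 of 40 LINE subfamilies, these markers summed to 6613 to 10740 CPM in KO and 4608 to 6326 CPM in WT. The macrophage genes Adgre1 (log2 fold change 1.02, edgeR adjusted p = 0.0478) and Cd68 (0.93, adjusted p = 0.0478) were called higher in KO males. In that fit 1.22% of all entries were called. Of the same list Ptprc (0.82, adjusted p = 0.050004) fell just short, and Cd79a was lower (-0.93, adjusted p = 0.452). With another scaling (RLE size factors) 8 of 22960 entries were called in males, against 280 in the main fit. Epithelial markers summed to 9.37 to 34.5 CPM in KO and 19.0 to 44.4 CPM in WT, and endothelial markers to 56.0 to 106 and 40.4 to 91.1 CPM. None of those tested was called over both sexes or in males. In males the epithelial gene Krt19 (-0.91) and the endothelial gene Vwf (1.22) fell just short, each with an edgeR adjusted p of 0.050004. Epcam, Scgb1a1 and Foxj1 did not pass the filter on low counts. The part of these RNAs in the levels of the LINE entries was not tested.

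The contrast of males and females gave the only calls of edgeR's test over all 11 libraries. In males 6 of 39 subfamilies were lower than in females and 0 of 39 were higher, where 2.18% of all entries were lower, 2.64% were higher and 4.82% were called in either direction, and 27 of 39 had an unadjusted p under 0.05, against 6193 of 22298 entries. All of these calls were lost when libraries were scaled on repeats. That scale takes out a difference that repeats share, so the loss does not test the calls. The median log2 difference, male minus female, was -0.45 for the 39, -0.46 for the other repeats, of which 134 of 1046 were lower, and -0.44 for L1 subfamilies, of which 24 of 147 were lower. The median over all entries was 0.02, and it moved to 0.45 when libraries were scaled on repeats, where the median of the 39 was 0.00.

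L4_C_Mam of RTE-X had the smallest adjusted p. It was at 5.04, 5.93 and 4.88 CPM in KO females and 5.38 and 7.14 CPM in WT females, against 3.57, 3.19 and 3.39 CPM in KO males and 4.48, 4.30 and 4.21 CPM in WT males. Every male lay below every female, and its log2 difference was -0.61 (SE 0.11, edgeR adjusted p = 0.0161). CR1-16_AMi was separated in the same way, at 0.839, 1.14 and 0.770 CPM in KO females and 1.14 and 1.04 CPM in WT females, against 0.667, 0.327 and 0.625 CPM in KO males and 0.622, 0.620 and 0.662 CPM in WT males. It fell by 0.79 on the log2 scale (SE 0.19, adjusted p = 0.0468), on 15 to 54 counts per library. These were the only 2 of 39 without overlap, where 1.93% of all entries had all males below and 2.93% above all females. Among KO animals alone, males lay below females for 29 of 40 subfamilies and above for 0 of 40, against 16.8% and 19.7% of all entries. Among WT animals they lay below for 3 of 40 (L4_C_Mam, CR1-16_AMi and X8_LINE) and above for 1 of 40 (CR1-3_Croc), against 12.6% and 16% of all entries; these 4 were named after their values were seen.

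The 4 others overlapped between the sexes. L2c differed by -0.46 (SE 0.11, edgeR adjusted p = 0.0438) and L2d2 by -0.48 (SE 0.12, adjusted p = 0.049), both of the L2 family. X7A_LINE of CR1 differed by -0.66 (SE 0.16, adjusted p = 0.0452) and L4_B_Mam of RTE-X by -0.65 (SE 0.17, adjusted p = 0.0499). Among families RTE-X alone passed, with -0.60 (SE 0.13, adjusted p = 0.0349), where 1.44% of entries in that fit were lower, 1.81% were higher and 3.26% were called in either direction. Scaled on repeats, RTE-X differed by -0.15 (adjusted p = 0.372) and did not pass, and Dong-R4 passed as higher in males (0.60, adjusted p = 0.0415). L2 differed by -0.37 (adjusted p = 0.0807), CR1 by -0.43 (0.0641) and RTE-Bo.B by -0.41 (0.0582), and scaled on repeats they stood at 0.08, 0.02 and 0.03. The count of 6 rested on single animals. It was 26 without WT female 1, 9 without WT male 3, and 0 or 1 without any of the other 9 libraries. How many of all entries were called in those fits is not shown here. Whether the swing is particular to these subfamilies was not tested.

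Scaled on repeats, 3 subfamilies instead passed as higher in males. That scaling also moved the median over all entries upward, as given above. The share of all entries called higher there is not shown, so these calls are not read as particular to these subfamilies. They were Mam_R4 of Dong-R4 (0.63, edgeR adjusted p = 0.035), X7C_LINE of CR1 (0.61, adjusted p = 0.0298) and X15_LINE of L2 (0.42, adjusted p = 0.04999). Scaled on all entries, Mam_R4 and X7C_LINE differed by 0.22 and 0.15 and X15_LINE by -0.02, and none passed. Mam_R4 was at 4.04, 4.07 and 4.40 CPM in KO females, 4.30, 4.69 and 5.31 CPM in KO males, 4.68 and 3.35 CPM in WT females and 3.71, 4.92 and 6.01 CPM in WT males. It was thus lowest in WT female 2, the library in which 24 of 39 subfamilies were highest.

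**Figure D4:**
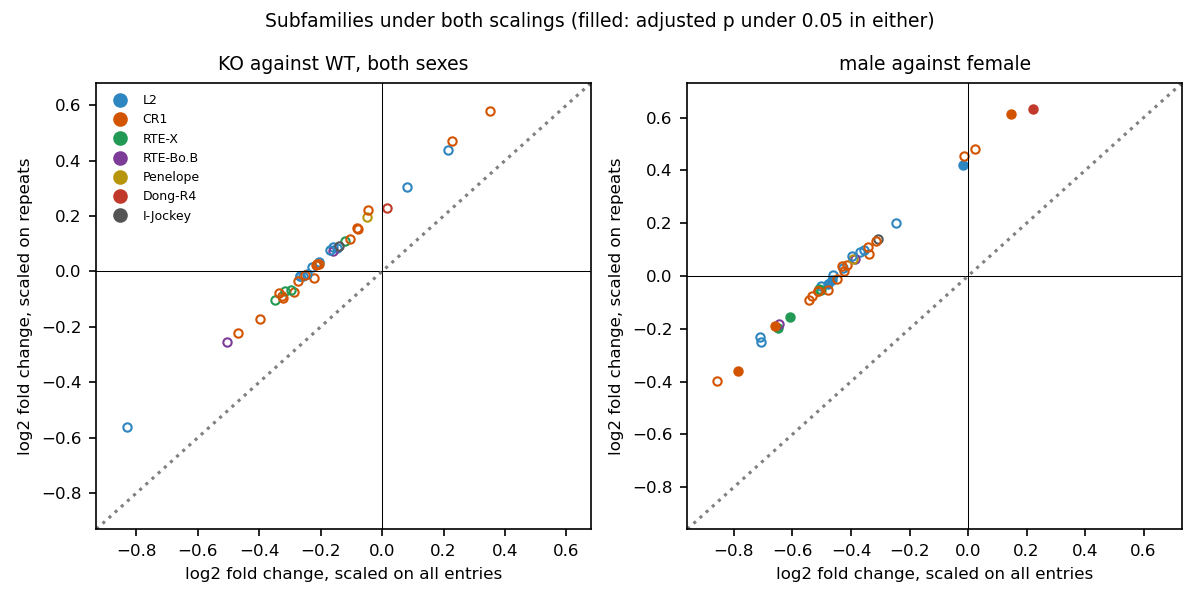
Log2 fold change of each tested LINE subfamily outside L1 with libraries scaled on all entries (horizontal) and on repeats alone (vertical), for KO against WT (left) and male against female (right); filled points passed 0.05 in either scaling. All points lie above the diagonal, and the medians move from -0.22 to 0.02 (left) and from -0.45 to 0.00 (right).

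Across libraries the LINEs outside L1 moved with the 3 repeat families they were correlated with. Over the 11 libraries the log2 CPM of their sum had a Pearson r of 0.998 and a Spearman rho of 1 with MIR (two-sided permutation p = 2e-05 for each, the smallest that 100000 resamples can give). With L1 r was 0.996 and rho 0.991, and with hAT-Charlie, an old DNA transposon family, r was 0.998 and rho 0.991. For these 3 relations all Benjamini-Hochberg adjusted p were 2e-05. Without KO male 2 and WT female 2, the libraries farthest from the median of the family on the horizontal axis, r was 0.997, 0.990 and 0.993. Within the 6 males r was 1.00 with MIR (exact permutation p = 0.00278), 0.991 with L1 (0.00556) and 0.997 with hAT-Charlie (0.00278). All these values share library depth, library totals and RNA composition. B4 and ERV1, for which no correlation was computed, had other orders. B4 was at 19254 CPM in KO male 3 and 15586 CPM in KO female 2, where the LINEs outside L1 summed to 965 and 1389 CPM. ERV1 ran from 2736 CPM in WT male 1 to 12177 CPM in WT male 3. The share of repeat counts on LINEs outside L1 ran from 1.51% in KO male 1 to 2.09% in KO female 2.

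The LINEs outside L1 spanned the narrowest range of the 4, 0.87 on the log2 scale from the lowest to the highest library, against 1.10 for MIR, 1.03 for L1 and 1.14 for hAT-Charlie. Their counts were 0.842 to 0.988 times those on MIR and 0.177 to 0.198 times those on L1. In KO against WT, L1 differed by -0.22, MIR by -0.27, hAT-Charlie by -0.27, 5S-Deu-L2 (a SINE with a tail related to L2) by -0.23 and L1-dep by -0.24. None of the 15 comparison families passed the edgeR test, and all 15 were negative in KO.

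**Figure D5:**
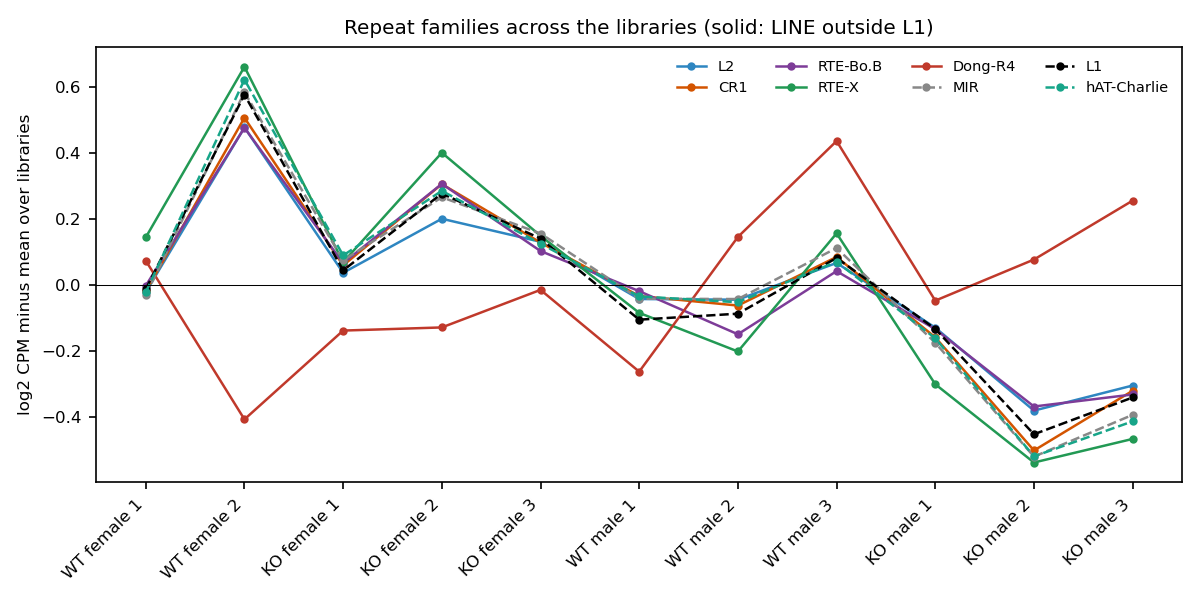
Log2 CPM of each family in each library minus its mean over the 11 libraries, for LINE families outside L1 (solid) and for MIR, L1 and hAT-Charlie (dashed); lines join points of 1 family for reading only, and the libraries have no order within a group. L2, CR1, RTE-Bo.B, RTE-X, MIR, L1 and hAT-Charlie are each highest in WT female 2 and lowest in KO male 2, and Dong-R4 is lowest in WT female 2.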

How the data were processed

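For each library the authors deposited raw counts of genes and repeat subfamilies as whole numbers. The submitters' processing notes name Trim Galore, STAR and the GRCm39 build. How reads were assigned to features, with or without strand, how reads matching many places were shared and which annotation served are not given in the sources used here, so repeat values are uncertain where copies share reads. Repeat names come from the tables; 52073 of 56980 gene IDs were given symbols from GENCODE vM21 (GRCm38), which was used for names alone.

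Sample groups came from the labels. The members and gene lists were chosen with earlier results of these data known. CPM was computed here on library totals of 27261958 to 48039328 counts. Tests used edgeR 4.0.16 in R 4.3.3: a quasi-likelihood F-test after filterByExpr (minimum count 10) and TMM scaling on all entries, Benjamini-Hochberg over all entries tested and a threshold of 0.05. KO against WT and male against female used additive terms for both, leaving 8 residual degrees of freedom. The contrasts within each sex and their difference used a mean per group (7). Family values used a table in which repeats were summed by family and genes were kept. P-values measure the spread between these animals. Libraries of 1 group differed by a chi-square per degree of freedom of 12.0 to 144, so none was a repeat deposit. The fit was also run on simulated data with the same dispersion for all entries and no outlying library. That run does not bear on the spread between these libraries.

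Subfamilies named are the 8 with the highest mean count, the 3 highest and 3 lowest fold changes, and those past the threshold, and others are said to be chosen later or complete a list; every family is named. Alternatives were RLE size factors, library totals alone, scaling on repeats, no filter, DESeq2 1.42.0, limma-voom 3.58.1 with sample weights, each library left out, the samples of 1 sex alone and a replicate block.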

Additional observations from a re-analysis of the deposited data

Results flagged for a closer look

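Of 52 sets of values examined (the sum, the families and the named subfamilies, in KO and in WT libraries), 12 had a highest or lowest library whose gap to its neighbour exceeded Dixon's critical value at the 95% level. Chance alone flags about 1 group in 20, and these sets share their libraries and much of their counts.

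In 11 of the 12 the library was WT female 2, the highest of the 5 WT libraries. It held 1663 CPM for the sum of all LINE entries outside L1, 1372 CPM for the L2 family, 205 CPM for CR1 and 49.6 CPM for RTE-Bo.B. Among subfamilies it held 485 CPM for L2a, 316 CPM for L2, 237 CPM for L2b, 132 CPM for L3, 61.7 CPM for L2d2, 49.8 CPM for L2d and 49.3 CPM for MamRTE1. L2c and RTE-X were not among them. The remaining case was X7C_LINE, at 1.46 CPM in KO male 1, the highest of the 6 KO libraries, on 68 counts.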

How the results depend on the processing

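Over both sexes, the 0 subfamilies called for KO against WT became 1 with limma-voom (X6B_LINE, -0.39, adjusted p = 0.0492) and ran from 0 to 2 with single libraries left out; the other settings gave 0. Over all entries edgeR called 1, DESeq2 525 and limma-voom 2779. In males the count was 1 with DESeq2 and 8 with limma-voom, and 0 to 2 with libraries left out. In females it was 0 in each fit that kept both WT females. For the difference between the sexes it was 0 throughout, and other settings gave 0. Families stayed at 0 called for KO against WT in each setting run. Male against female, 6 subfamilies became 3 with library totals alone and 3 (all higher) with scaling on repeats. They became 20 with DESeq2, 29 with limma-voom and 0 to 26 with libraries left out. With RLE size factors 0 of 40 subfamilies passed in males, where 8 of 22960 entries were called. Male against female, 5 of 39 passed with that scaling, where 881 of 22298 entries were called. For the other settings the numbers over all entries are shown for both sexes together, if at all. The counts those settings gave in males and for male against female therefore have no background here. The single family (RTE-X) was replaced by Dong-R4 with scaling on repeats, and the count became 4 with DESeq2, 6 with limma-voom and 0 to 6 with libraries left out. The share of counts kept its sign, from -0.0182 to -0.00381 points, with libraries left out. The relations to MIR, L1 and hAT-Charlie kept their sign and passed with TMM-scaled CPM.

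Scaling on repeats turned the sign of KO against WT for L2a (0.09), L2 (0.03), L2b (0.02), L3 (0.03), MamRTE1 (0.07) and L2d (0.09), and for the families L2 (0.05; males 0.05, females 0.05), CR1 (0.03; females 0.07), RTE-Bo.B (0.08; males 0.08, females 0.07), Penelope (0.20) and I-Jockey (0.09). For male against female it turned L2 (0.08), CR1 (0.02), RTE-Bo.B (0.03), Penelope (0.03) and I-Jockey (0.11). These signs are relative to repeats as a whole, because that scale takes out a difference that repeats share. Dong-R4, near 0, turned to -0.01 with DESeq2 and -0.03 with limma-voom. With libraries left out it ran from -0.07 to 0.10 and Penelope from -0.20 to 0.03. In females L2 ran from -0.42 to 0.16, CR1 from -0.41 to 0.20, RTE-Bo.B from -0.39 to 0.17 and RTE-X from -0.52 to 0.08. The cause was not tested.

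Replicate numbers were not used to pair the samples. In deviations from group means, same-numbered KO and WT libraries of a sex correlated at -0.145 to 0.0734 and others at -0.238 to 0.191. Such deviations cancel within a group, and those of the WT females mirror each other. These values therefore cannot settle whether the numbers mark pairs. With a replicate block 0 subfamilies were called over both sexes, and 0 of 24184 entries, with 4 residual degrees of freedom; L2 was at -0.20 and CR1 at -0.21. Male against female cannot be estimated with that block.

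Depth bears most on subfamilies with few counts; for those of 10 to 100 counts the spread was 0.80 to 1.99 times counting error.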
